A study of Saccharomyces cerevisiae with 4 samples.

Results

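The genes described here are 10 cyclin and G1/S regulator genes of budding yeast: CLN1, CLN2, CLN3, CLB1, CLB2, CLB3, CLB5, SWI4, MBP1 and PCL1. They were taken by name from the 6002 nuclear protein-coding genes of the RefSeq table (assembly R64, which sacCer3 names), and all 10 were found. Open chromatin had been mapped by ATAC-seq, an assay where Tn5 transposase inserts adapters into accessible DNA, in 2 wild-type (WT) libraries and 2 libraries of cells lacking SWC4 (swc4Δ). Both genotypes carried the laboratory strain name BY4741 and were grown at 30 °C to mid-logarithmic phase, at an OD600 near 1.0. Swc4 belongs to 2 chromatin complexes: SWR1, a remodeller that deposits Htz1 (H2A.Z), and NuA4, which acetylates histones. Whether replicate libraries derive from independent cultures is not stated in the labels, so their spread may be technical.

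Cyclins are the regulatory partners of cyclin-dependent kinases, and their abundance rises and falls through the cell cycle. In budding yeast Cln3 with the kinase Cdc28 relieves the inhibitor Whi5, which lets the factors SBF (Swi4 with Swi6) and MBF (Mbp1 with Swi6) switch on the genes of the G1/S transition. CLN1, CLN2 and PCL1 are known SBF targets and CLB5 is a known MBF target, while CLB1 and CLB2 belong to the later group of genes driven by Mcm1, Fkh2 and Ndd1. A culture in logarithmic phase is a mixture of all cell cycle stages, so each peak is an average over them, and a change in the share of cells at a stage cannot be told apart from a change in each cell.

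A gene was counted as open in a library when a peak of that library shared at least 1 bp with the 1000 bp upstream of its start codon, called its window here. Of the 10 genes, 7 had such a peak in all 4 libraries (CLN1, CLN2, CLN3, CLB1, CLB2, CLB5 and PCL1), against 35.6% of all 6002 windows. The other 3 (CLB3, SWI4 and MBP1) had a peak in each swc4Δ library but in no WT library, a pattern called gained, which 5.21% of all windows showed. No gene of the 10 was lost, meaning a peak in each WT library but in no swc4Δ library, against 1.2% of all windows. The number of the 10 with a peak was thus 7 and 7 for WT against 10 and 10 for swc4Δ. Over all genes, a peak lay in 3058 and 2626 windows for WT against 3603 and 2965 for swc4Δ. With 2 libraries against 2, an exact two-sided permutation test gives at best p = 0.333, so no difference between the genotypes below can pass 0.05.

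**Figure D1:**
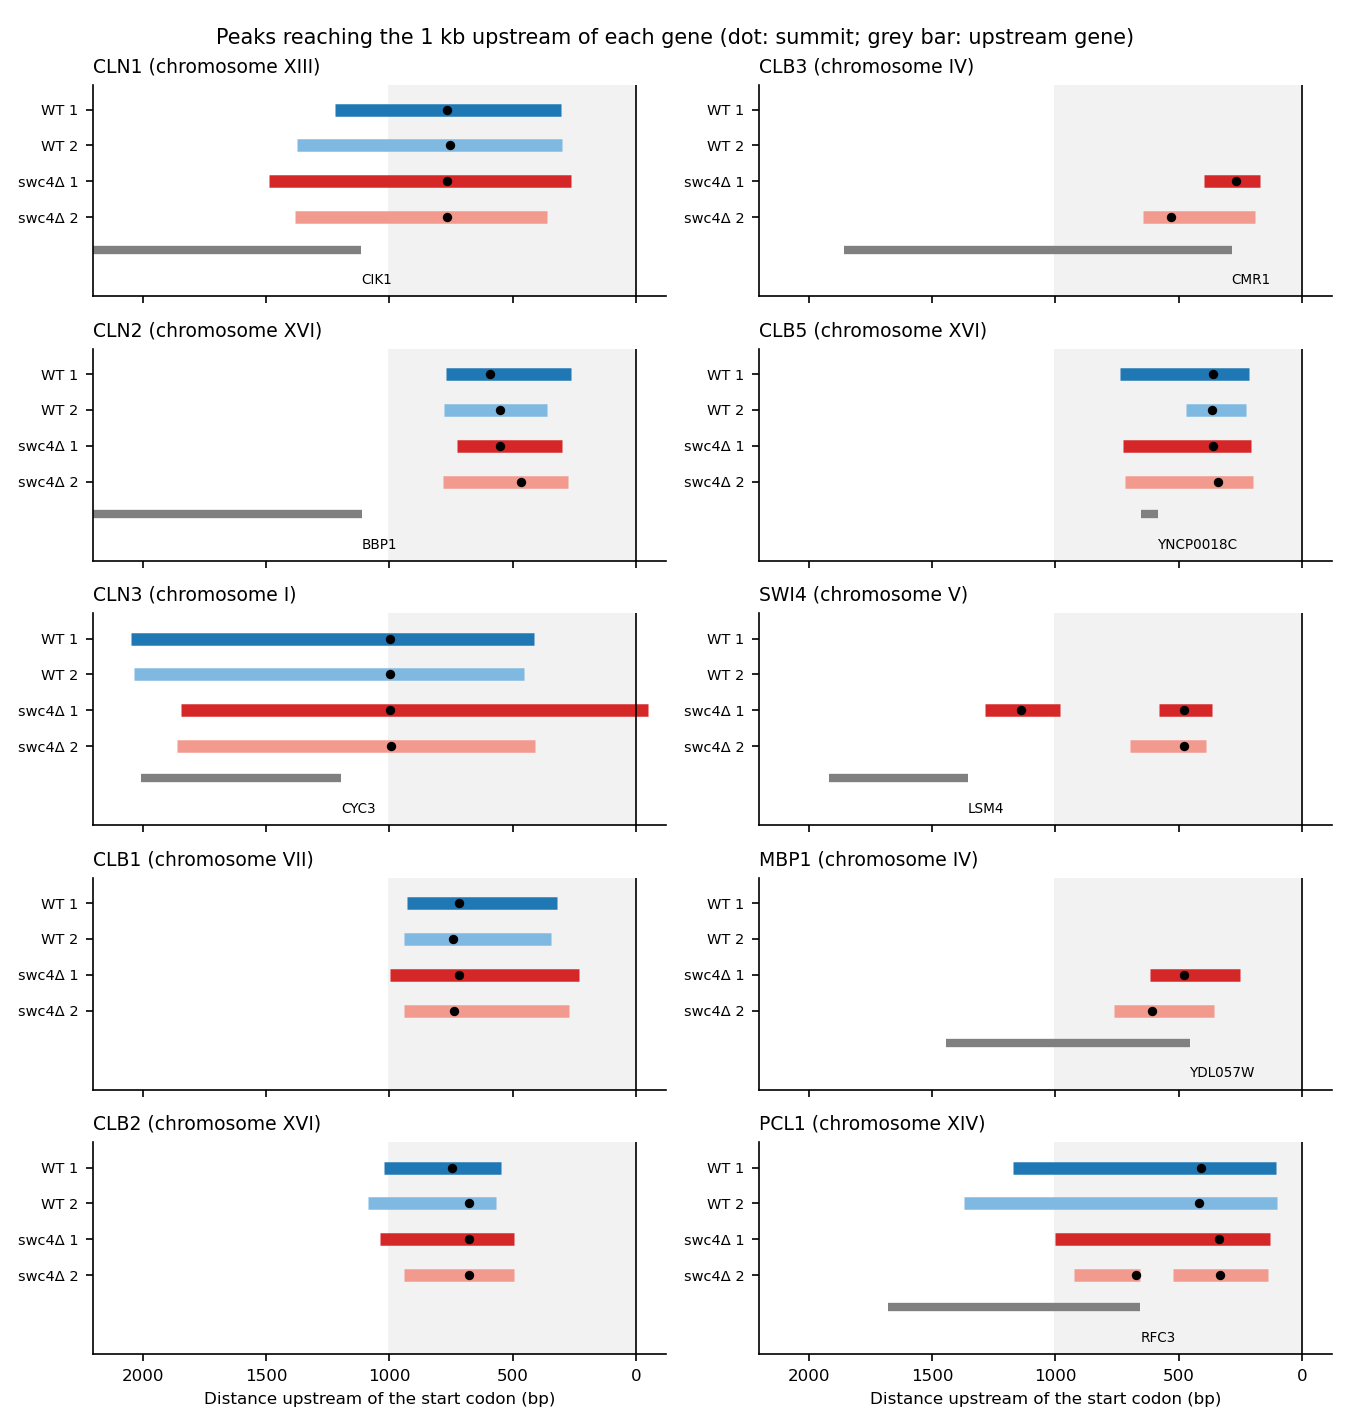
Peaks that reached the 1000 bp upstream of each start codon (grey band), by library; the horizontal axis is the distance upstream in bp, with the start codon at 0 and values below 0 inside the gene. Coloured bars span each peak, black dots mark summits and grey bars mark the nearest upstream gene where it lies within the plot; CLB3, SWI4 and MBP1 have bars in the swc4Δ libraries only.

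Peak lists numbered 2354 and 2115 entries for WT against 2826 and 2368 for swc4Δ. Each peak carries the authors' fold at its summit. In every library the folds were whole multiples of a single step (within 0.05 of a step for 100% of peaks). The fold was read from these values as the summit pileup plus 1 over a single background pileup plus 1. The added 1 is an assumption that no label or header states. On this reading the background pileups were 22.6 and 24.0 for WT against 24.4 and 25.5 for swc4Δ, and each summit is a whole number of overlapping tags. The 95% intervals below are exact Poisson intervals on that number and cover counting error only. They take the tags as independent, which could not be checked. The lowest fold of any peak was 1.61 and 1.56 for WT against 1.54 and 1.55 for swc4Δ, so a window with no peak may still hold weaker signal than that.

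SWI4 (YER111C, chromosome V, 382595 to 385876, minus strand) codes for the DNA-binding subunit of SBF. In swc4Δ replicate 1 its window held a peak at 386241 to 386455 with a fold of 2.52, from a summit pileup of 63 (95% interval 48.4 to 80.6). In swc4Δ replicate 2 the peak spanned 386268 to 386573, with a fold of 2.23 and a summit pileup of 58 (44.0 to 75.0). The summits lay 480 and 479 bp upstream of the start codon, so both libraries placed the opening at the same spot. Neither WT library had a peak there. The nearest WT summits, 1136 and 1139 bp upstream, belonged to a separate peak beside LSM4, a divergent gene for a subunit of an RNA-binding Sm-like complex, which starts 1356 bp upstream of SWI4. That neighbouring peak was present in all 4 libraries, with folds of 3.18 and 2.84 for WT against 4.57 and 3.62 for swc4Δ. The gap between SWI4 and LSM4 thus held 1 called peak in WT and 2 in swc4Δ. In swc4Δ replicate 1 the LSM4 peak just entered the SWI4 window, at 981 bp. It was not counted as the SWI4 peak, which was the strongest peak with its summit inside the window.

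MBP1 (YDL056W, chromosome IV, 352877 to 355378, plus strand) codes for the DNA-binding subunit of MBF. Its peaks were the weakest of the 10 genes, with folds of 1.97 and 1.81 in the swc4Δ libraries and summit pileups of 49 (95% interval 36.3 to 64.8) and 47 (34.5 to 62.5). Ranked by fold within their own lists, they stood at percentiles 13.7 and 10.4. For comparison, the weakest peaks that entered the WT lists had summit pileups of 37 and 38. The summits lay 479 and 610 bp upstream, and the upstream gene YDL057W ends 456 bp upstream of MBP1, so both summits fell within that gene. With peaks of −log10 q of at least 5 neither MBP1 peak remained (4.30 and 3.13), and with equal numbers of peaks per list MBP1 was no longer gained.

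CLB3 (YDL155W, chromosome IV, 176773 to 178056, plus strand) codes for a B-type cyclin of early mitosis and spindle assembly. Its swc4Δ peaks spanned 176373 to 176603 in replicate 1 and 176127 to 176583 in replicate 2. Their folds were 2.36 and 2.08, at percentiles 34.4 and 32.0 of their lists, and their −log10 q values were 7.75 and 5.18. The summits were 268 and 534 bp upstream. The first lay in the 286 bp gap below CMR1, the second inside CMR1. In WT the closest upstream summits were 4440 and 4448 bp away. Over all 313 gained windows, the median fold was 2.56 and 2.19 in the swc4Δ libraries and the median percentile 43.4 and 38.9. CLB3 and MBP1 lay below those medians in both libraries.

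The 3 gained genes lie on chromosomes IV (CLB3 and MBP1) and V (SWI4). Both swc4Δ lists held clearly more peaks on IV than the WT lists, whereas on V only that of replicate 2 did. Chromosome IV had 293 and 240 peaks for WT against 405 and 459 for swc4Δ, and 11.7% of its 766 windows were gained. Chromosome V had 136 and 130 peaks for WT against 137 and 175 for swc4Δ, with 3.82% of its 288 windows gained. On the other chromosomes that carry one of the 10 genes (I, VII, XIII, XIV and XVI), 1.31% of 1980 windows were gained, and none of the 7 genes there was. Over all chromosomes the share was 5.21%, above that of V. It was 29.6% on XI and 11.3% on VIII, which carry none of the 10. Among windows open in all 4 libraries, the median fold on IV relative to the other chromosomes was 1 and 1 for WT against 1.04 and 1.15 for swc4Δ. The same ratio on V was 1.08 and 1.07 for WT against 1.11 and 1.29 for swc4Δ.

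Divided by that ratio, the SWI4 folds became 2.27 and 1.72, the CLB3 folds 2.27 and 1.80 and the MBP1 folds 1.89 and 1.57. SWI4 and CLB3 were still gained when only scaled folds of at least 1.61 were kept, and MBP1 was not. How far the level of these chromosomes sets the calls was not tested beyond this.

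**Figure D2:**
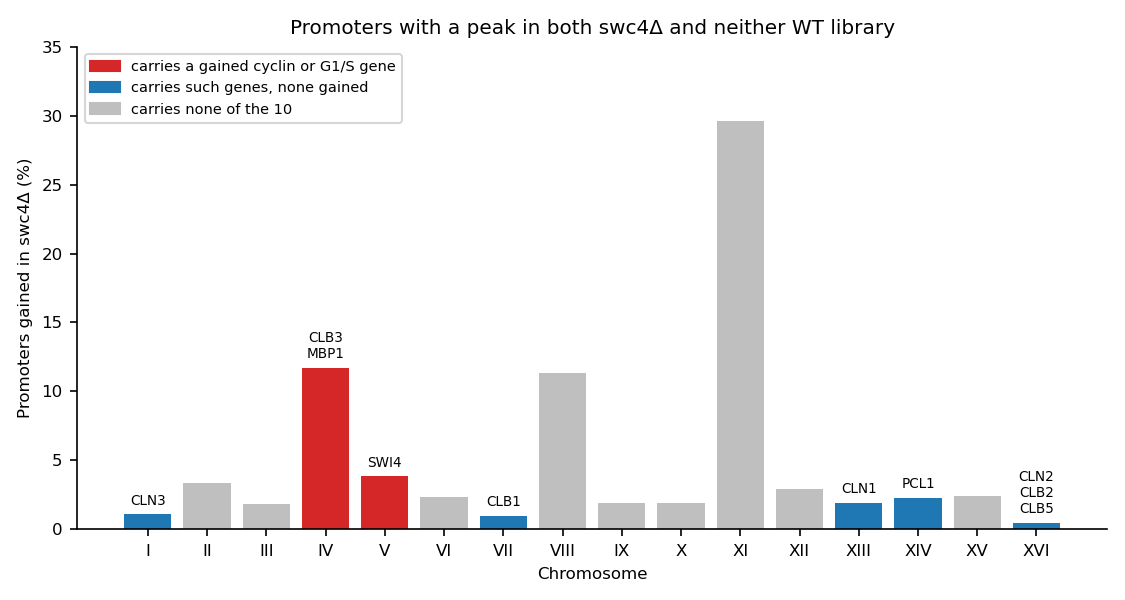
Share of windows gained in swc4Δ (vertical axis, percent of the protein-coding genes on each chromosome) by chromosome, with the cyclin and G1/S regulator genes written above their bar. CLB3 and MBP1 sit on IV at 11.7% and SWI4 on V at 3.82%, while XVI, with CLN2, CLB2 and CLB5, is at 0.423%.

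Among the G1 cyclin genes, CLN3 (YAL040C, chromosome I, 65778 to 67520, minus strand) codes for the cyclin that starts the G1/S programme. Its folds were 4.45 and 3.80 for WT against 5.64 and 4.60 for swc4Δ, at percentiles 91.0 to 95.6 of their lists. All 4 summits fell within 3 bp of each other, 994 to 997 bp upstream of the start codon. The CLN3 peak was also the widest of the 10 genes, at 1635 and 1581 bp for WT against 1892 and 1451 bp for swc4Δ. In WT it spanned the whole of the neighbouring tandem gene CYC3 (68716 to 69525), which codes for a cytochrome c haem lyase, and in swc4Δ it ended inside CYC3, at 69363 and 69380. The single summit lay in the gap between the genes. Towards CLN3 the peak ended 414 and 454 bp upstream in WT and 410 bp upstream in swc4Δ replicate 2. In swc4Δ replicate 1 it ran 48 bp into the gene.

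CLN1 (YMR199W, chromosome XIII, 662644 to 664284, plus strand) and CLN2 (YPL256C, chromosome XVI, 64977 to 66614, minus strand) code for the paralogous G1 cyclins that act after Cln3. CLN1 had folds of 4.79 and 3.80 for WT against 5.60 and 4.42 for swc4Δ. The genotypes overlapped. Its summits lay 754 to 768 bp upstream, a spread of 14 bp over the 4 libraries. CLN2 had folds of 3.13 and 2.92 for WT against 3.90 and 2.94 for swc4Δ, again overlapping, with summits 469 to 592 bp upstream. CLN1 stood above CLN2 in 4 of 4 libraries, by a ratio of 1.30 to 1.53. The counting intervals of the pair were separate in WT replicate 1 and overlapped in the other 3. The CLN2 peak lies in a gap of 1110 bp that it shares with the divergent gene BBP1, a gene for a spindle pole body protein, and cannot be assigned to either gene alone.

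PCL1 (YNL289W, chromosome XIV, 87897 to 88736, plus strand) codes for a G1 cyclin of the kinase Pho85. Its folds were 3.22 and 2.56 for WT against 3.59 and 2.91 for swc4Δ, and the genotypes overlapped. In the per-library lists the open stretch was shorter in swc4Δ, though replicate 1 was close to WT. There 893 and 897 bp of the window lay in peaks in WT, against 868 and 655 bp in swc4Δ. The authors' genotype lists, described below, had the opposite order, with 550 bp of the window covered for WT and 1000 bp for swc4Δ. On the far side the peak ran 1170 and 1371 bp upstream in WT, well into the tandem gene RFC3, which codes for a subunit of the clamp loader of DNA replication. In swc4Δ replicate 1 it stopped at 1003 bp. Replicate 2 had 2 peaks, with no peak called from 524 to 658 bp upstream and a fold of only 1.81 for the outer one. The summits were 412 and 419 bp upstream in WT and 337 and 332 bp in swc4Δ.

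CLB5 (YPR120C, chromosome XVI, 773875 to 775182, minus strand) codes for the B-type cyclin that promotes DNA replication. Its folds were 3.05 and 2.52 for WT against 3.55 and 2.45 for swc4Δ, so the genotypes overlapped. Summits were steady, 340 to 366 bp upstream. In WT replicate 1 and both swc4Δ libraries the peak also covered the tRNA gene YNCP0018C (775765 to 775836), whereas in WT replicate 2 it was 243 bp wide and stopped at 470 bp, short of that gene. Covered bases in the window were 523 and 243 for WT against 519 and 521 for swc4Δ, a mean of 383 ± 198 (SD, n = 2) against 520 ± 1.41 (SD, n = 2).

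CLB2 (YPR119W, chromosome XVI, 771653 to 773128, plus strand) codes for the main mitotic cyclin, and among the 7 genes open throughout its peak had the largest difference in mean fold between the genotypes. Its folds were 3.05 and 2.92 for WT against 6.31 and 4.26 for swc4Δ. Summit pileups were 71 and 72 for WT against 159 and 112 for swc4Δ. The 95% intervals of the fold were 2.39 to 3.84 and 2.29 to 3.67 in WT and 5.37 to 7.36 and 3.52 to 5.12 in swc4Δ. The interval of swc4Δ replicate 1 thus stood apart from those of both WT libraries, and replicate 2 overlapped them at the edge of its interval. These are raw folds, which were higher in swc4Δ at many windows, as given below. Summits were 746 and 676 bp upstream in WT and 677 and 679 bp in swc4Δ, and the 3 nearest to each other spanned 770974 to 770977. The peak's near edge was 547 and 567 bp upstream in WT and 494 and 496 bp in swc4Δ, so within 500 bp of the start codon a CLB2 peak was found in swc4Δ only.

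CLB1 (YGR108W, chromosome VII, 703636 to 705051, plus strand) codes for the paralogue of Clb2. Its folds were 3.30 and 3.40 for WT against 5.32 and 3.66 for swc4Δ, with summits 717 to 744 bp upstream. The genotypes did not overlap, though swc4Δ replicate 2 was close to WT. CLB2 ranked below CLB1 in both WT libraries (ratios 0.923 and 0.859) and above it in both swc4Δ libraries (1.19 and 1.16). The counting intervals of the pair overlapped in each of the 4 libraries.

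**Figure D3:**
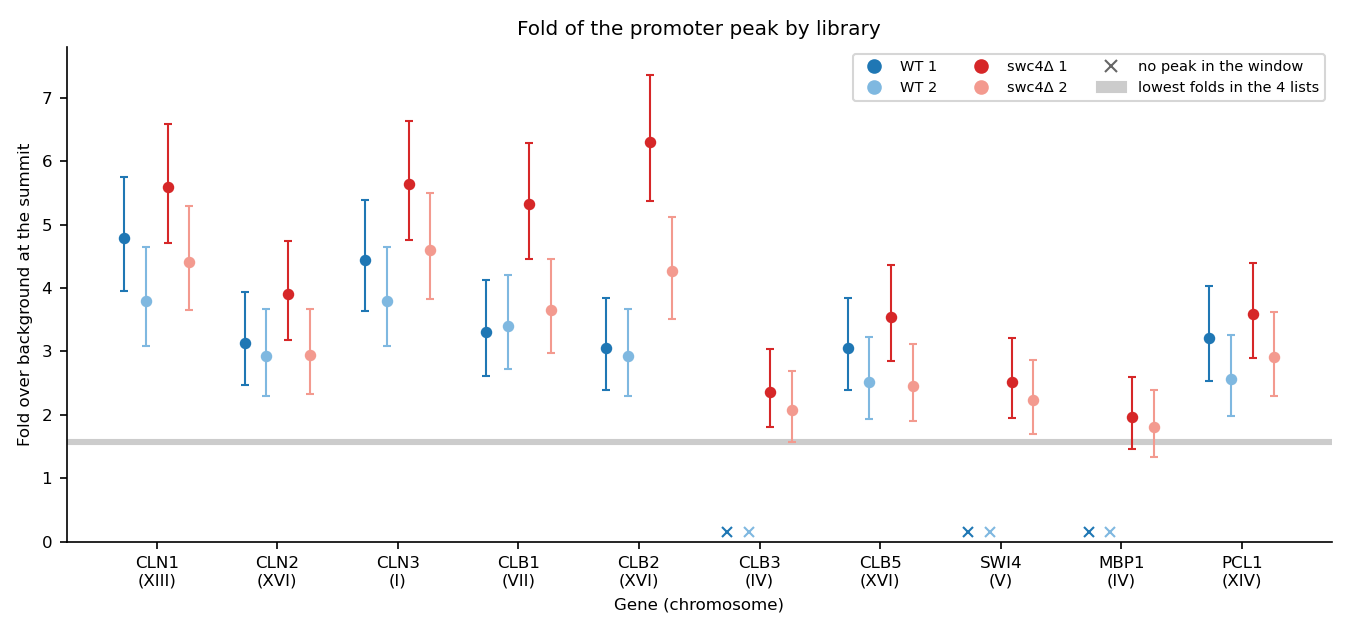
Fold over background at the summit (vertical axis, the authors' values) for the promoter peak of each gene, by library; bars are exact Poisson 95% intervals on the summit pileup and crosses mark a window with no peak. The CLB2 points are at 3.05 and 2.92 for WT against 6.31 and 4.26 for swc4Δ, and those of CLB3, SWI4 and MBP1 lie between 1.81 and 2.52 in swc4Δ.

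Folds were higher in swc4Δ at many windows. Both swc4Δ folds exceeded both WT folds at 3 of the 7 genes (CLN3, CLB1 and CLB2) and at 43.9% of the 2134 windows open in all 4 libraries, and the share below was 0 of 7 against 3.33%. Each fold was therefore also divided by the median of those 2134 windows in its library, a measure added after the data had been seen. On this relative scale CLB2 was at 1 and 1.07 for WT against 1.65 and 1.41 for swc4Δ, a mean of 1.04 ± 0.0520 (SD, n = 2) against 1.53 ± 0.168 (SD, n = 2). The ratio of swc4Δ to WT was 1.48 (exact permutation p = 0.333). Of the 2134 windows, 25 (1.17%) had a ratio as high or higher. CLB2 was singled out as the highest of the 7 genes, so this share gives its rank and is not a test.

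For the other 6 genes the ratio lay between 0.903 (CLB5) and 1.12 (CLB1), around the median of 0.994 over all 2134 windows. CLN3, at 1.46 and 1.40 for WT against 1.47 and 1.53 for swc4Δ, was the other gene with both swc4Δ values above both WT values, a pattern that 26.7% of the windows had. CLN2, at 1.03 and 1.07 for WT against 1.02 and 0.975 for swc4Δ, had both below, as had 26.2% of the windows.

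CLB2 could also be set against CLB5 and CLN2, which are on chromosome XVI too, within each library. The fold of CLB2 over that of CLB5, whose coding sequence lies next to it in the opposite direction, was 1 and 1.16 for WT against 1.78 and 1.74 for swc4Δ. Over CLN2, on the other arm, it was 0.973 and 1 for WT against 1.62 and 1.45 for swc4Δ. The counting intervals of CLB2 and CLB5 overlapped in both WT libraries and were separate in both swc4Δ libraries. Those of CLB2 and CLN2 were separate in swc4Δ replicate 1 only. Neither CLB5 nor CLN2 is a neutral reference. On the relative scale CLB5 had the lowest swc4Δ to WT ratio of the genes open throughout (0.903), though its genotypes overlapped. CLN2 had both swc4Δ values below both WT values. The change in the 2 within-library ratios therefore also includes the lower mean relative folds of CLB5 and CLN2 in swc4Δ. Leaving out 1 library in turn gave a swc4Δ to WT ratio of the relative fold of 1.38 to 1.60 for CLB2.

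**Figure D4:**
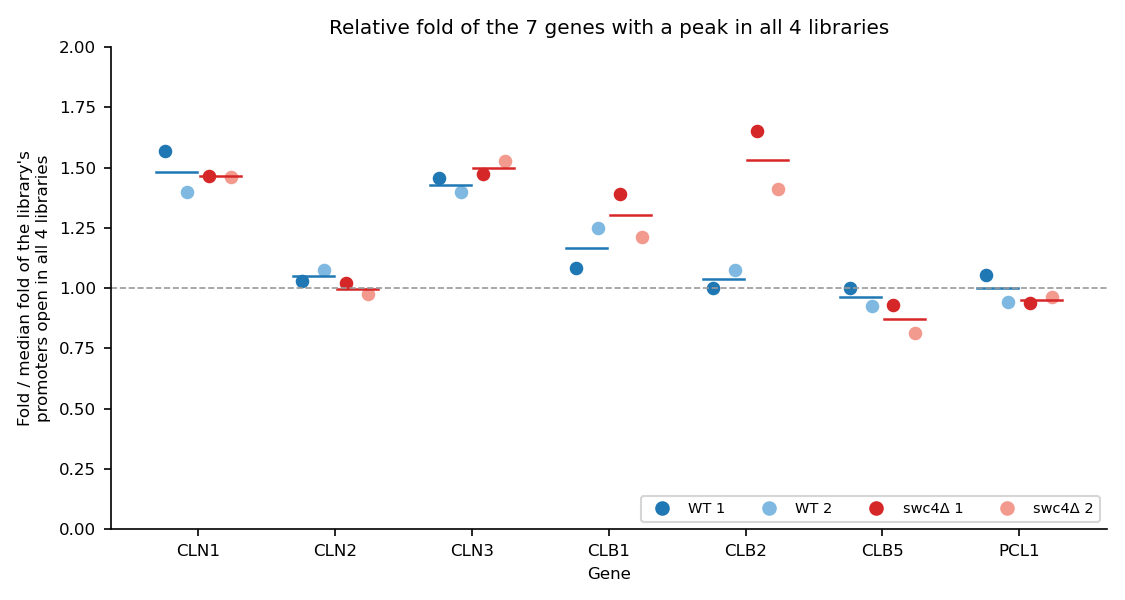
Fold of each of the 7 genes with a peak in all 4 libraries, divided by the median fold of the 2134 windows open in all 4 libraries of the same library (vertical axis, no unit; dashed line at 1); short lines are the means of 2 libraries. CLB2 is at 1 and 1.07 for WT against 1.65 and 1.41 for swc4Δ, whereas the means of the other 6 genes differ by a ratio of 0.903 to 1.12.

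The length of open sequence followed a different order from the folds. Both swc4Δ libraries had more covered bases in the window than both WT libraries at 5 of the 10 genes, against 31.9% of the 4043 windows with a peak in any library, and fewer at 1 (PCL1), against 9.25%. Of these 5, 3 were the gained genes, with 0 covered bases in WT. CLB1 had 607 and 599 covered bases in WT and 767 and 670 in swc4Δ, a mean difference of 115.5 bp (exact permutation p = 0.333). CLN3 had 587 and 547 for WT against 1000 and 591 for swc4Δ, where replicate 2 exceeded WT replicate 1 by only a few bases. CLB2 had 454 and 434 for WT against 507 and 447 for swc4Δ, which overlapped, so the genotypes were set apart by the fold of this peak and not by its length.

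Most of the 7 genes open throughout had a summit farther upstream than the typical window. Their median summit distance over the libraries ranged from 360 bp (CLB5) to 996 bp (CLN3), with a median of 678 bp, and 6 of the 7 exceeded the median of 361.25 bp over the 2134 windows open in all 4 libraries. PCL1 exceeded it only slightly, at 374.5 bp, and CLB5 was about at it. The genes also had long upstream gaps. The gap to the next gene had a median of 1114 bp for the 7 genes, against 550 bp for the 2134 and 422 bp for all coding genes, and CLB1 and CLB2 had the longest, 2587 and 2350 bp, each up to a tRNA gene. Among the 328 windows with a gap of at least 1000 bp the median summit distance was 570.25 bp, and among the 5 genes with such a gap (CLN1, CLN2, CLN3, CLB1 and CLB2) it was 729 bp. The summit moved by less than 67 bp over the libraries, the median of the 2134 windows, at CLN1, CLN3, CLB1 and CLB5, and by more at CLB2, PCL1 and CLN2 (70, 87 and 123 bp). CLB3, with a gap of 286 bp, was the single gene of the 10 below the median gap of all coding genes.

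**Figure D5:**
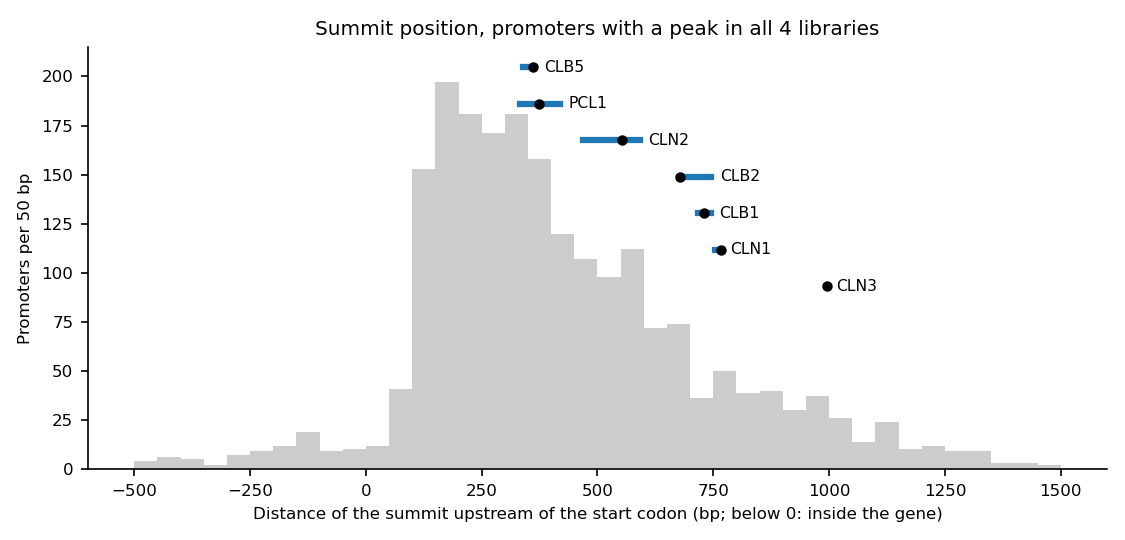
Distance of the summit upstream of the start codon (horizontal axis, bp, median of 4 libraries) for the windows open in all 4 libraries (grey histogram, 50 bp bins) and for the 7 cyclin genes (black dots, with blue bars from the lowest to the highest library). The genes run from CLB5 at 360 bp to CLN3 at 996 bp, and 6 of 7 lie above the median of 361.25 bp.

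The authors' 2 genotype lists, 1 per genotype and without replicates, are of unstated method. Of the 10 genes, 6 had a region in the window in the WT list and 9 in the swc4Δ list, where the shares of all windows were 25.7% and 58.4%. SWI4, CLB3 and CLB5 had a region in the swc4Δ list only, as did 33.4% of all windows, and MBP1 had none in either. For CLB5 this differs from the per-library lists, which held a peak in both WT libraries. For PCL1 the order of covered bases was the reverse of that in the per-library lists, at 550 bp for WT against 1000 bp for swc4Δ. In the authors' own score CLB2 was at 306 in the WT list (percentile 60.0) and 688 in the swc4Δ list (percentile 93.9), lists that differ in length (1002 and 2602 regions). A higher score and percentile in the swc4Δ list was shared by all 6 genes with a region in both. CLN2 went from 298 (percentile 57.1) to 384 (74.3), and PCL1 from 256 (43.3) to 321 (66.2). CLN3 led the 10 genes in both, at 391 and 705.

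Of the other cyclin genes, 4 of 15 were open in all 4 libraries (CTK2, PCL2, PCL5 and PCL7), 4 in none, and 0 were gained or lost. CLB4 and CLB6, the B-type cyclins closest to CLB3 and CLB5 and named after their values were seen, had weak peaks: CLB4 in swc4Δ replicate 1 alone (fold 1.81), CLB6 in WT replicate 1 (2.08) and both swc4Δ libraries (2.48 and 1.81). Among 22 other G1/S regulator genes, 10 were open throughout, 2 were gained and 1 was lost. The gained ones were CDC53, which codes for the cullin of the SCF ubiquitin ligase (chromosome IV, folds 2.76 and 2.45), and MSA2, which codes for a cofactor of SBF and MBF (chromosome XI, folds 2.44 and 1.96). CDC4, which codes for the F-box protein of the same ligase, was lost, from folds of 1.78 and 1.84 in WT. On the chromosomes of CDC53 and MSA2, 11.7% of 766 and 29.6% of 318 windows were gained. SWI6 and WHI5, the shared subunit and the inhibitor, had no peak in any library, also named after their values were seen.

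Among 19 SBF and MBF target genes outside the 10, 11 were open throughout, 1 was gained and 0 were lost. The gained gene was POL2, which codes for the catalytic subunit of DNA polymerase epsilon (folds 2.21 and 1.85). Its summits were at 160 and −152 bp upstream in the swc4Δ libraries, so that of replicate 2 lay inside the gene. POL30, named after its values were seen, counted as open throughout with only 1 and 2 covered bases in WT. Its WT summits lay outside the window, 1183 and 1242 bp upstream. CLB6 is in this list and also among the other cyclin genes. Of 17 regulators of G2/M and M/G1, 11 were open throughout and 0 were gained or lost. Set beside these counts, 35.6% of all windows were open throughout, 5.21% were gained and 1.2% lost.

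For genes whose call differed between the genotypes, the windows with the most alike pattern of covered bases were sought over 1000 positions and 4 libraries, using the Jaccard index (shared covered positions over all covered positions). For CLB3 they were YRB1 (0.879), BPL1 (0.798) and SBE2 (0.792), all on chromosome IV. For SWI4 they were SAP190 (0.764), PTC2 (0.748) and GOR1 (0.670), on chromosomes XI, V and XIV. For MBP1 they were YIR020C (0.913), PXL1 (0.709) and HXT13 (0.707), on IX, XI and V. CLN3 was most like YAH1 (0.967), ECM30 (0.966) and LAF1 (0.895), CLB1 like SWI1 (0.957), DUR12 (0.936) and CYC8 (0.926), and PCL1 like ADH3 (0.929), PDR11 (0.925) and PLB1 (0.918).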

How the data were processed

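ATAC-seq peak lists of 2 WT and 2 swc4Δ libraries were used. Per the submitters' processing notes, the build was sacCer3 and the tools were deepTools 1.5.11, SAMtools 1.4, Bowtie2 2.3.1, Trim Galore 0.5.0 and Picard 2.18.7. How peaks were called, and whether Tn5 offsets were applied, is not given in the sources used here. In the deposited lists each peak has a fold (a ratio to background), −log10 p and q, a score (10 times −log10 q) and a summit. The deposited genotype lists hold a score of unstated scale. Their genotype was read from the code in their names.

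Gene ends came from RefSeq R64. The lengths of all 10 genes are multiples of 3, so the gene end was taken as the start codon, and strand was read from the systematic name. Overlaps, folds and exact permutation tests were computed with Python 3.11.15, pandas 2.3.3 and SciPy 1.17.1, and the overlap step was tested on simulated data. All libraries are described together. The members and gene lists were chosen with earlier results of these data known. Genes named outside the 10 were the gained or lost ones of each list, up to 6 per list and direction, and the 3 most alike windows. No genome was used, so no promoter sequence or motif is reported. There were 11 alternatives chosen at the start and 2 added later.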

Additional observations from a re-analysis of the deposited data

How the results depend on the processing

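Of the 10 genes, 6 or 7 had a peak in all 4 libraries (6 with the 500 bp window, where CLB2 had no WT peak, and 6 with at least 50% of the peak in the window, where CLN3 had 1 only in swc4Δ replicate 1) and 0 were lost under all 13 alternatives. The gained genes were 2 to 4: MBP1 dropped out at −log10 q of at least 5, with equal numbers of peaks, at a fold of at least 2 and with folds scaled by chromosome, and CLB2 joined in the 500 bp window. Leaving out 1 library gave 5 to 8 genes with more covered bases in swc4Δ (8 without WT replicate 1) and 1 to 3 with fewer (3 without WT replicate 2, 2 without swc4Δ replicate 1). Over all windows it gave 382 to 683 gained (594 without WT replicate 1, 683 without swc4Δ replicate 2) and 94 to 279 lost (131 and 213 when WT replicate 1 or 2 was dropped, 279 when swc4Δ replicate 1 was). Lost windows also went from 72 to 113 with at least 50% of the peak in the window, 32 at −log10 q of at least 5 and 122 with equal numbers of peaks. The cause was not tested. Deviations of same-numbered libraries from their genotype mean correlated at 0.030 over 4043 windows, so no pairing was seen window by window. Replicate 1 nevertheless had more peaks than replicate 2 in both genotypes (2354 against 2115 for WT, 2826 against 2368 for swc4Δ). What this shared order reflects was not tested. With the replicate block 3 genes were gained and 6, in place of 5, had more covered bases, CLB2 being the additional one. The relative folds were not computed with the block, and CLB2 had none in the 500 bp window. Peak presence depends on a pileup near the threshold, so gains at folds under 2 are the least firm.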
